A study of Mus musculus with 10 samples.

Results

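The immediate early genes followed here were 10 genes that a stimulated cell transcribes within minutes, without first making new protein: Fos, Fosb, Jun and Junb, whose proteins pair into the AP-1 transcription factor; the zinc finger factors Egr1, Egr2 and Egr3; the orphan nuclear receptor Nr4a1; and the neuronal activity genes Arc and Npas4. The members were listed by name, with earlier results of these data known. Of the 10 genes listed, 5 (Fos, Jun, Junb, Egr1 and Nr4a1) were in the gene table of 11702 genes, and Fosb, Egr2, Egr3, Arc and Npas4, which are not in that table, were followed through sums of their transcript counts. RNA was sequenced from the retinas of 10 female mice. Each had received 1 μL into the vitreous on postnatal day 10 (P10) and once more on P24, with tissue taken on P36. The 4 WT mice (W1 to W4) and 3 rd10 mice (D1 to D3) received the vehicle DMSO, and 3 rd10 mice (H1 to H3) received 20 μM halofantrine, an antimalarial drug. The rd10 mice were B6.CXB1-Pde6brd10/J, which carry a mutation in Pde6b, a subunit of the rod phosphodiesterase, and lose rods from the third postnatal week. The labels do not name a separate source for the WT mice. Mice with an injured eye or lens after injection had been left out, so every retina here came from an eye injected 2 times and none from an uninjected one. Batch 1 of the labels held W1 to W4, D1, D2 and H1, and batch 2 held D3, H2 and H3. The sample titles also name sets, without saying what a set is: set1 for W1 to W3, set1_5 for W4, set2 for D1, D2 and H1, last for H2 and H3 and final for D3. WT and rd10 share no set, so set and genotype cannot be told apart, and neither can set and library for W4 and for D3.

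Transcription of these genes is switched on by calcium and growth factor signals, which reach their promoters through kinases of the MAPK and CaMK families and the factors SRF with its ELK partners, CREB and MEF2. Their messenger RNAs are short-lived, so that the level in a tissue depends on what its cells met in the last hour before collection, handling and anaesthesia included. In the retina, Egr1 and Fos are known from amacrine and bipolar cells responding to light and from Müller glia, the radial support cells of the retina, responding to injury or photoreceptor loss. Arc and Npas4 are known mainly from neurons.

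Estimated counts on genes ranged from 15512200 in D3 to 38160400 in D2. Levels are given as CPM, counts relative to library size, after scaling by TMM, a method that assumes that most genes do not change. The label of 1 library was at odds with its content. Pde6b, the gene mutated in rd10, stood between 2699 and 2855 CPM in W1 to W3 and between 125 and 387 CPM in the 6 rd10 libraries, but at 93.1 CPM in the library labelled WT W4. The summed CPM of 13 rod marker genes was 80297 to 84411 in W1 to W3, 3198 in W4 and 4062 to 11866 in rd10. The library labelled WT W4 was kept with the WT libraries by its label, and each comparison with WT is also given without it. Relative to W1 to W3, W4 and the rd10 libraries were higher in bipolar cell markers (1623 to 1709 CPM in W1 to W3, 2969 in W4, 2584 to 3120 in rd10), in Müller glia markers (4521 to 4683, 9651 and 8041 to 9753 CPM) and in gliosis markers (223 to 259, 1217 and 1223 to 1477 CPM). In bulk RNA, more cells of a type and more RNA per cell cannot be told apart. CPM are relative levels, so a smaller share of rod RNA can also raise the share of other cell types without either. The part of each was not tested.

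The sequences upstream of 7 of the 10 members were taken from RefSeq windows (GRCm38.p6) of 300 bases, 250 before and 50 after the transcript start. They were searched on both strands for the elements through which the family is known to be induced. No window of Egr1, Egr3 or Arc was searched, so nothing below covers these members. These were the CArG box bound by SRF, the cAMP response element (CRE) TGACGTCA and its core TGACG, the AP-1 site TGANTCA, the EGR site GCGNGGGCG, and the TATA box TATAAA. A full CRE also holds the core. The 250 bases before the start of Fos, of Egr2 (the third of its 5 windows), of Nr4a1 and of Npas4 are shown because they carry different sets of these elements, which stand in capitals.
Fos, chr12:85473640-85473889, + strand: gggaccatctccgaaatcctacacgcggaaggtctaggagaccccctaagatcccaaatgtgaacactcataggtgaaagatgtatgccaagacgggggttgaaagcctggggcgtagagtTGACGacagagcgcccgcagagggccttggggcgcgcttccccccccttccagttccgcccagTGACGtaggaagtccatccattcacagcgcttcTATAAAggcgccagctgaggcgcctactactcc
Egr2, chr10:67537619-67537868, + strand: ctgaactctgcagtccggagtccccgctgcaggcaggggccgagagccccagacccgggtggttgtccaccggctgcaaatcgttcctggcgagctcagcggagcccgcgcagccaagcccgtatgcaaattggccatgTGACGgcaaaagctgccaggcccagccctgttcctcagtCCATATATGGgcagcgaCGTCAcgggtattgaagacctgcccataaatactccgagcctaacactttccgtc
Nr4a1, chr15:101266596-101266845, + strand: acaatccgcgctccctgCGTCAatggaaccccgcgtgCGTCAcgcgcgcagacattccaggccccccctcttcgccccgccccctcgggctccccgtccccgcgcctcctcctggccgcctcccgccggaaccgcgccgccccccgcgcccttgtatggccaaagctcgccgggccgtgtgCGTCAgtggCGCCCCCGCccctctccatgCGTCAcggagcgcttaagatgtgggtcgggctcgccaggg
Npas4, chr19:4989972-4990221, - strand: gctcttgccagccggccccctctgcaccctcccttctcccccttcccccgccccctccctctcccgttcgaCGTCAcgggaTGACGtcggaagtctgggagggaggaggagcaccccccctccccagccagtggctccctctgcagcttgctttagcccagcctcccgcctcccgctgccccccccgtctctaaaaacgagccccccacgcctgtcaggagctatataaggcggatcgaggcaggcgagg
Positions are counted from the transcript start at 0. Fos held 2 CRE cores, at -129 and -66, and a TATA box at -33. Egr2 held a CArG box at -72 between 2 CRE cores at -111 and -55. Its windows overlap in part: windows 3, 4 and 5 held this same box and window 2 another, so there were 2 distinct boxes. A CArG box was in 1.63% of the 32851 mouse windows. Nr4a1 held 4 CRE cores, all on the reverse strand, and an EGR site at -60. Npas4 held 2 CRE cores at -179 and -169. CRE cores were found in 20.8% of all windows, the EGR site in 5.55% and the TATA box in 13.6%. Of the members not shown, Fosb held a CRE core at -60 and an EGR site at -50, Junb held a CRE core at -106 and a TATA box at 0, and none of these letters were in the Jun window. The full CRE (1.79% of windows) and the AP-1 site (7.81%) were in none of the windows searched for these 7 members. A match describes the letters and shows no binding.

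Levels between genes were compared per kilobase of transcript, with the caution that the genes of the gene table and those from transcript sums were scaled separately. Over the 10 libraries, Nr4a1 stood highest at 16.6 ± 1.502 CPM per kb (SD, n = 10), followed by Fos at 11.6 ± 2.34, Egr1 at 11.04 ± 5.34 and Jun at 8.20 ± 1.79 in the gene table. Over all 10 libraries Fos and Egr1 did not differ beyond their spread, which for Egr1 holds the gap between W1 to W3 and the rest. In W1 to W3 they did differ, with Fos at 9.60 ± 0.727 and Egr1 at 3.93 ± 0.305 CPM per kb (n = 3). Junb stood at 4.12 ± 1.72 and Npas4 at 2.33 ± 0.659 CPM per kb. Fosb at 1.13 ± 0.477, Egr3 at 0.988 ± 0.541 and Arc at 0.761 ± 0.302 overlapped in spread, and Egr2 was lowest at 0.253 ± 0.178. The place of Egr1 in this order differed between W1 to W3 and rd10 retina. In W1 to W3 Egr1 was at 3.93 ± 0.305 CPM per kb (n = 3), below Jun at 7.94 ± 0.796. In DMSO-treated rd10 retina it was at 15.3 ± 3.83 (n = 3), next to Nr4a1 at 17.8 ± 1.21 and above Jun at 7.09 ± 3.07. The library labelled WT W4 also had Egr1, at 13.2 CPM per kb, above Jun, at 9.06. Over all 4 WT libraries Egr1 was at 6.24 ± 4.62 and Jun at 8.22 ± 0.859 (n = 4), overlapping in spread. The place of Jun depends on the table. The gene table holds 2 times the Jun count of the transcript sums in every library. Only 1 Jun transcript was matched by GENCODE M21, and whether an unmatched one holds the rest was not tested. The sums leave out unmatched transcripts, so they can undercount a gene, also among the members found only there. Of all transcript counts, 97.4% to 97.7% were matched to a gene. In the sums Jun was at 4.11 ± 0.893 CPM per kb over the 10 libraries, level with Junb. In W1 to W3 it was at 4.04 ± 0.404 (n = 3), within the spread of Egr1.

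**Figure D1:**
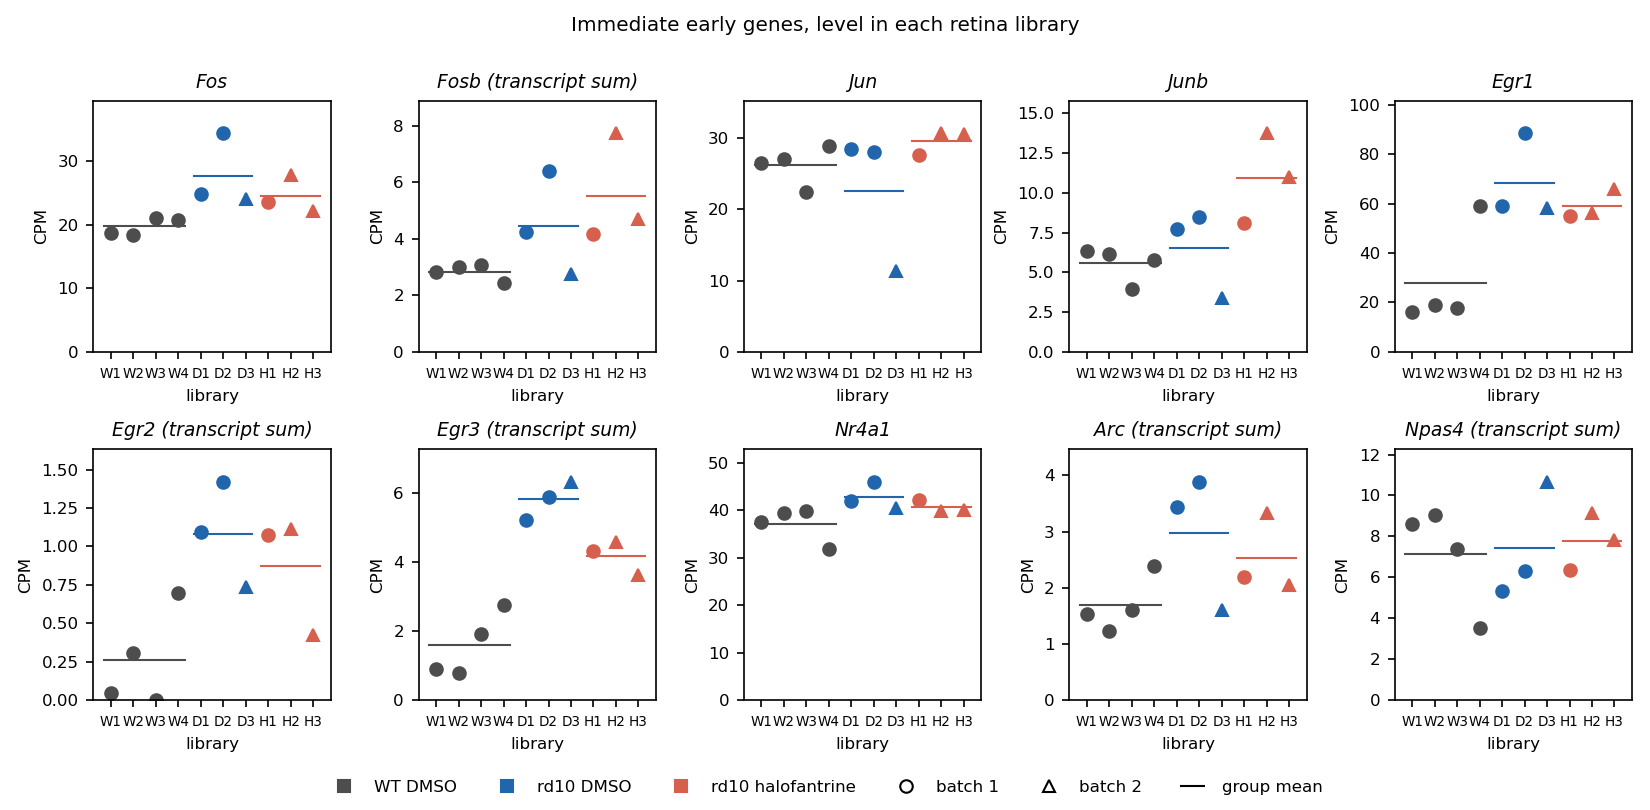
Level of each immediate early gene (y axis, CPM on a linear axis from 0) in each of the 10 retina libraries (x axis), coloured by group, with circles for batch 1, triangles for batch 2 and a line at each group mean. Egr1 lies at 16.2 to 19.0 CPM in W1 to W3 and at 55.1 to 88.4 CPM in the rd10 libraries, with the library labelled WT W4 at 59.1, and Jun is lowest in D3.

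The first comparison asked how the family differed between DMSO-treated rd10 and WT retina. The EGR genes differed most. Egr1, a factor induced in neurons and glia alike, measured 16.2, 19.0 and 17.7 CPM in W1, W2 and W3, 59.1 in W4, and 59.2, 88.4 and 58.1 CPM in D1, D2 and D3. All 3 rd10 libraries were thus above W1 to W3 by a wide gap, and W4 lay inside the rd10 range. Egr3, an EGR factor that acts downstream of calcium signals in neurons, measured 0.913, 0.773, 1.90 and 2.75 CPM in W1 to W4 and 5.22, 5.88 and 6.32 CPM in D1 to D3. Here no WT library, W4 included, reached the lowest rd10 library. Egr2, known from myelinating glia and neurons, was close to the limit of detection, with 1, 6, 0 and 19 estimated counts in W1 to W4 and 27, 57 and 12 in D1 to D3, which is 0.048, 0.309, 0 and 0.696 CPM against 1.09, 1.42 and 0.736 CPM. Its fitted fold changes rest on these few counts.

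With all 4 WT libraries, edgeR's quasi-likelihood test with Benjamini-Hochberg adjustment called no gene of 11698 (0%), although 3108 had an unadjusted p under 0.05. DESeq2 called 589 genes and limma-voom 0. In the transcript sums the test called 1 gene of 17660 (0.00566%), no member. Egr1 was 1.29 higher on the log2 scale (SE 0.48, adjusted p = 0.187), Egr3 1.86 higher (SE 0.43, adjusted p = 0.205) and Egr2 1.94 higher (SE 0.84, adjusted p = 0.206). Without the library labelled WT W4, the same test called 3778 genes higher (32.3%) and 3502 lower (29.9%) of 11696, so a call for a single gene was common. Of the 5 members of the gene table, Egr1 rose by 1.97 (SE 0.18, adjusted p = 8.6e-05) and Fos rose by 0.53 (SE 0.15, adjusted p = 0.0161), and none fell. In the transcript sums, 26.9% of 17324 genes were called higher. All 10 members were tested there, and Egr1 (1.93) and Fos (0.49) were called as in the gene table. Of the 5 members found only there, Egr3 rose by 2.30 (SE 0.32, adjusted p = 0.000738), Egr2 by 3.13 (SE 0.74, adjusted p = 0.00874) and Arc by 1.06 (SE 0.35, adjusted p = 0.0345).

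The AP-1 genes differed less. Fos, the inducible partner of the Jun proteins, measured 18.8, 18.4, 21.1 and 20.7 CPM in W1 to W4 and 24.8, 34.4 and 23.99 CPM in D1 to D3. All WT libraries were below all rd10 libraries, and W4 was inside the range of W1 to W3. Fosb, a relative of Fos with a long-lived splice form, measured 2.84, 2.99, 3.09 and 2.42 CPM in WT and 4.25, 6.38 and 2.76 CPM in rd10, so that D3 overlapped the WT range. Its difference without W4 was 0.62 (SE 0.30, adjusted p = 0.117). Jun, the core AP-1 partner, measured 26.5, 27.1, 22.4 and 28.9 CPM in W1 to W4 and 28.5, 28.1 and 11.3 CPM in D1 to D3. D1 and D2 were within the WT range, and D3 alone was far below it, at 184 counts. Junb, which can restrain Jun, measured 6.36, 6.15, 3.97 and 5.76 CPM in WT and 7.74, 8.48 and 3.38 CPM in rd10, again with D3 lowest. Without W4 the difference was -0.14 for Jun (SE 0.31, adjusted p = 0.718) and 0.28 for Junb (SE 0.35, adjusted p = 0.504). With W4 but without D3, the Jun difference changed sign to 0.12.

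Nr4a1, an orphan receptor induced with the EGR genes, measured 37.5, 39.4, 39.7 and 31.8 CPM in W1 to W4 and 41.8, 46.0 and 40.4 CPM in D1 to D3. The groups did not overlap, but the difference without W4 was 0.15 (SE 0.073, adjusted p = 0.114). Arc, whose protein acts at synapses, measured 1.54, 1.24, 1.60 and 2.38 CPM in WT and 3.44, 3.89 and 1.60 CPM in rd10, with D3 at the WT level. Npas4, a calcium-induced factor of neurons, measured 8.60, 9.06, 7.36 and 3.52 CPM in WT and 5.34, 6.28 and 10.7 CPM in rd10. It was not called with W4 (0.05, SE 0.37, adjusted p = 0.924) or without it (-0.18, SE 0.25, adjusted p = 0.574). Over all 4 WT libraries, Fos and Nr4a1 of the 5 members in the gene table did not overlap between groups, against 10.1% of genes, as did Egr2 and Egr3 of the 5 in the transcript sums, against 11% of genes.

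The direction of some of these differences depended on what the libraries were scaled to: without W4 those of Fos, Fosb, Junb and Nr4a1 changed sign with the inner neuron scaling, and with all 4 WT libraries those of Fos, Junb, Nr4a1 and Npas4. When the libraries were scaled to the summed markers of bipolar, amacrine and ganglion cells and W4 was left out, the median of all genes moved from -0.01 to -0.68, and 678 genes of 11696 (5.8%) were called higher and 8468 (72.4%) lower. In the transcript sums these were 6.02% and 58.7% of 17324. Egr1 was still 1.29 higher (SE 0.16, adjusted p = 0.000116), Egr3 1.67 higher (SE 0.35, adjusted p = 0.00262) and Egr2 2.50 higher (SE 0.74, adjusted p = 0.0154). Fos changed sign to -0.15 (adjusted p = 0.357), Fosb to -0.04 and Junb to -0.41, Nr4a1 fell by 0.52 (adjusted p = 0.000615) and Jun fell by 0.83 (adjusted p = 0.0166). Arc was 0.40 higher (adjusted p = 0.298) and Npas4 fell by 0.78 (adjusted p = 0.0414). Scaled to Müller glia markers without W4, which put the median of all genes at -0.96, Egr1 was 1.03 higher (SE 0.17, adjusted p = 0.000198) and the other 4 members of the gene table were lower. These scalings state the level per amount of marker RNA and do not say in which cells a gene was transcribed.

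**Figure D2:**
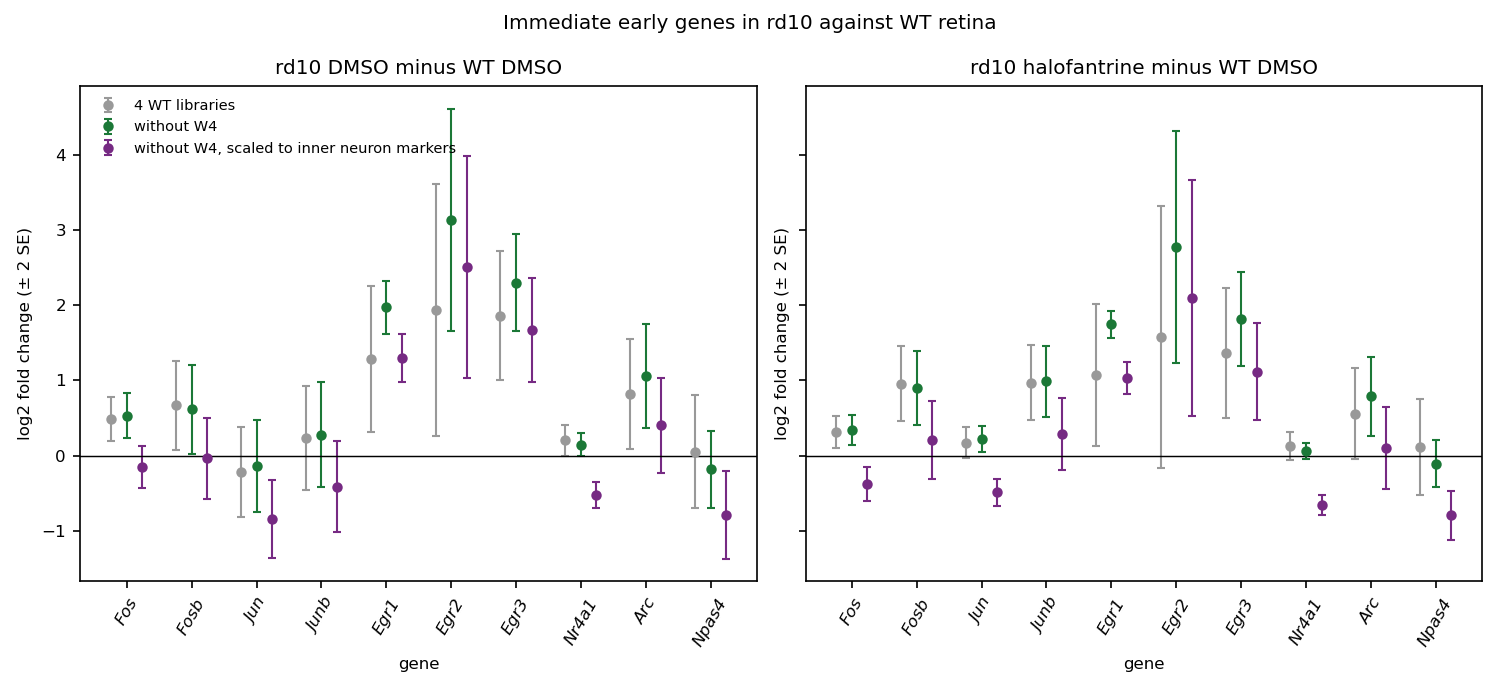
Log2 fold change of each immediate early gene (x axis) in rd10 retina against WT, with DMSO on the left and halofantrine on the right, bars showing 2 SE to each side. Points in grey use 4 WT libraries, in green leave out the library labelled WT W4, and in purple also scale to inner retinal neuron markers. The points of Egr1, Egr2 and Egr3 stay above 0 in all 3, though the grey bar of Egr2 reaches -0.16 with halofantrine. Fos and Nr4a1 change sign with the scaling on both sides, Fosb and Junb with DMSO only and Jun with halofantrine only.

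The library labelled WT W4 did not follow rd10 for every member. For Egr1, Egr2, Jun, Junb and Arc, 5 members in all, it lay inside the range of the 6 rd10 libraries, and for Fos and Junb it lay inside the range of W1 to W3. For 4 members (Fosb, Egr3, Nr4a1 and Npas4) it lay in neither. Its Nr4a1 level of 31.8 CPM (856 counts), Npas4 level of 3.52 CPM (96 counts) and Fosb level of 2.42 CPM (66 counts) were each the lowest of the 10 libraries.

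The second comparison asked whether halofantrine altered these genes in rd10 retina. No member was called, and neither was any of the 11692 genes (0%) or 17891 transcript sums (0%) tested by edgeR. Of the genes, 557 had an unadjusted p under 0.05, DESeq2 called 3 and limma-voom 0, with no member among the 3. Egr3 came closest. It measured 5.22, 5.88 and 6.32 CPM in D1 to D3 and 4.30, 4.56 and 3.61 CPM in H1 to H3, so that every halofantrine-treated library lay below every DMSO-treated one. Egr3 alone of the 10 members did not overlap, where 12.7% of transcript sums and 13.1% of genes did not. Its difference was -0.49 (interval of 2 SE to each side, -0.81 to -0.18), with an unadjusted p of 0.0152 and an adjusted p of 0.91 by edgeR. Its differences within the batches, whose sign the lack of overlap already fixed, were -0.33 in batch 1 and -0.58 in batch 2 on the log2(CPM + 0.5) scale. With batch as a term, again no gene or transcript sum was called, and Egr3 differed by -0.51 (adjusted p = 0.346).

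The remaining members overlapped between treatments. Egr1 measured 55.1, 56.4 and 65.9 CPM in H1 to H3 against 58.1 to 88.4 CPM in D1 to D3, a difference of -0.22 (interval -0.56 to 0.12). Fos measured 23.6, 27.9 and 22.2 CPM against 23.99 to 34.4 CPM, a difference of -0.18 (interval -0.50 to 0.13). For both genes D2, the deepest library, was the highest, and without D2 the difference was close to 0, at 0.01 for each. Nr4a1 measured 42.1, 39.8 and 40.0 CPM, a difference of -0.08 (interval -0.22 to 0.07), which is the narrowest interval of the family. Of the low members, Egr2 differed by -0.37 (interval -1.24 to 0.50), Arc by -0.28 (interval -0.97 to 0.42), Fosb by 0.27 (interval -0.41 to 0.94) and Npas4 by 0.07 (interval -0.46 to 0.60).

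Jun and Junb leaned the other way. Jun measured 27.6, 30.6 and 30.5 CPM in H1 to H3, close to D1 and D2 at 28.5 and 28.1, and D3 was alone at 11.3 CPM. Junb measured 8.07, 13.7 and 10.96 CPM, with D1 and D2 at 7.74 and 8.48 and D3 at 3.38 CPM. The differences were 0.37 for Jun (interval -0.23 to 0.97, adjusted p = 0.886) and 0.71 for Junb (interval 0.04 to 1.39, adjusted p = 0.883). Without D3 they were 0.07 and 0.43, and with batch as a term 0.64 and 0.82 (adjusted p = 0.321 and 0.328). Within batch 1 the difference was -0.03 for Jun and -0.01 for Junb, and within batch 2 it was 1.39 and 1.72. A treatment by batch term, added after the low value of D3 was seen, restates that value and adds no evidence of its own: D3 is the only DMSO-treated library of batch 2 and H1 the only halofantrine-treated one of batch 1, so batch and library cannot be told apart. By edgeR it was 1.46 for Jun (SE 0.13, adjusted p = 0.0286), with 45 of 11692 genes called (0.385%), and 1.87 for Junb (SE 0.30, adjusted p = 0.0557). In the transcript sums, where 28 genes were called (0.157%), Jun was not (adjusted p = 0.0571, and 0.103 with the GC trend described next removed). D3 was also the shallowest library, and GC-rich genes were lower in it. At the GC content of Junb (62.6%, above that of 99.3% of genes) the trend of all genes stood at -0.54 in D3, and at that of Jun (55.5%) at -0.10. With that trend removed, the interaction was 1.41 for Jun (adjusted p = 0.0375) and 1.36 for Junb (adjusted p = 0.133). Jund, the AP-1 relative with a steady level in most tissues, was looked at after the values of Jun were seen. It was at 4.49 CPM in D3 against 22.4 to 42.1 CPM in the other rd10 libraries, and the trend at its GC content was not looked at. The other AP-1 relatives tested differed less in D3. Fosl2 was at 17.8 CPM, inside the 16.6 to 21.6 CPM of the other rd10 libraries. Jdp2 was at 14.0 CPM against 16.9 to 21.4 CPM, and Mafg at 121 CPM against 138 to 160 CPM.

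**Figure D3:**
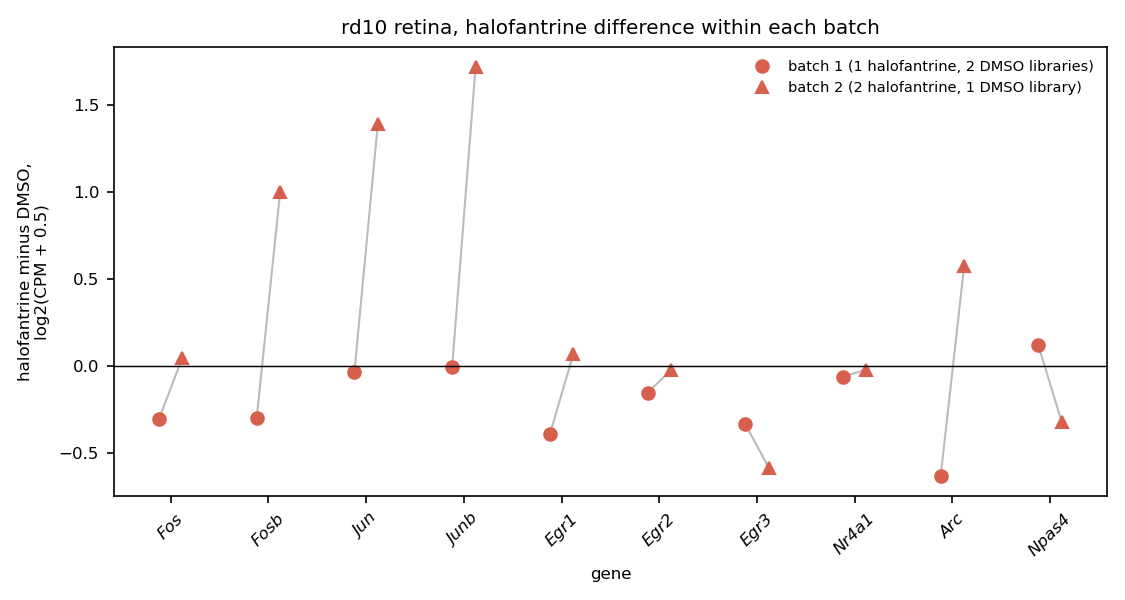
Halofantrine-treated minus DMSO-treated rd10 retina for each immediate early gene (x axis), as a difference of mean log2(CPM + 0.5) (y axis), with circles for batch 1 (1 against 2 libraries) and triangles for batch 2 (2 against 1 library). Jun and Junb lie near 0 in batch 1 and at 1.39 and 1.72 in batch 2, while Egr2, Egr3 and Nr4a1 are below 0 in both.

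The third comparison set halofantrine-treated rd10 retina against WT. It shares the WT libraries with the first comparison, so both are given side by side and are not independent. With 4 WT libraries, 1 gene of 11699 (0.00855%) and 1 transcript sum of 17806 (0.00562%) were called by edgeR, no member. This count depended on the method: DESeq2 called 2221 genes, Junb among them (0.98, adjusted p = 0.00955), limma-voom called 0, and edgeR with Müller glia scaling called 6025, none of the 5 members in the gene table. With 4 WT libraries, edgeR put Egr1 1.07 higher (adjusted p = 0.151), Egr3 1.37 higher (adjusted p = 0.154) and Egr2 1.58 higher (adjusted p = 0.231). Without W4, edgeR called 35.7% of 11699 genes higher and 36.2% lower, and 30.9% of 17473 transcript sums higher. Egr1 rose by 1.75 (SE 0.091, adjusted p = 1.22e-06) against 1.97 with DMSO, Egr3 by 1.81 (adjusted p = 0.000801) against 2.30 and Egr2 by 2.77 (adjusted p = 0.0116) against 3.13. Arc rose by 0.79 (adjusted p = 0.0272) and Fos by 0.34 (adjusted p = 0.0145). Junb rose by 0.99 (SE 0.23, adjusted p = 0.00454), Fosb by 0.90 (SE 0.25, adjusted p = 0.0109) and Jun by 0.22 (SE 0.085, adjusted p = 0.0401). In the transcript sums Jun was at 0.20 and was not called (adjusted p = 0.107). Of the remaining members, Nr4a1 (0.06, adjusted p = 0.329) and Npas4 (-0.11, adjusted p = 0.574) were not called. In the direct comparison of the treatments neither Junb, Fosb nor Jun was called. Over all 4 WT libraries, Fos, Junb and Nr4a1 did not overlap between the groups (18.8% of genes did not), nor did Fosb and Egr3 (17.3% of transcript sums did not).

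Scaled to inner retinal neuron markers without W4, Egr1 (1.03, adjusted p = 1.1e-05), Egr3 (1.12, adjusted p = 0.0105) and Egr2 (2.10, adjusted p = 0.0355) were still higher in halofantrine-treated rd10 retina, where 767 of 11699 genes (6.56%) were called higher and 8979 (76.8%) lower, 6.52% and 64.6% of transcript sums were, and the median of all genes was -0.73. Junb was 0.28 higher (adjusted p = 0.293), Fosb 0.21 higher (adjusted p = 0.485) and Arc 0.10 higher (adjusted p = 0.753), so that none of these 3 kept its call, while Fos fell by 0.38, Jun fell by 0.49, Nr4a1 fell by 0.65 and Npas4 fell by 0.79, each of these past the threshold. With the GC trend removed and W4 left out, Junb (0.54, adjusted p = 0.0552), Fos (0.26, adjusted p = 0.0515) and Jun (0.10, adjusted p = 0.323) were not called, and Egr1 rose by 1.55 (adjusted p = 3.75e-06).

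The fourth comparison set the 3 rd10 libraries of batch 2 against the 3 of batch 1, with treatment as a term. It called 559 of 11692 genes (4.78%) and 382 of 17891 transcript sums (2.14%), no member among them. The gene count moved with the method, to 1429 with DESeq2, 218 with no treatment term, 0 with all 10 libraries in the fit and 88 to 2635 with 1 library left out. Npas4 came closest, at 10.7, 9.12 and 7.81 CPM in D3, H2 and H3 against 5.34, 6.28 and 6.34 CPM in D1, D2 and H1. Every batch 2 library was above every batch 1 library, with a difference of 0.64 (SE 0.16, unadjusted p = 0.0044, adjusted p = 0.0904 by edgeR). Scaled to inner retinal neuron markers it was 0.78 (adjusted p = 0.0354), a scaling under which 8.78% of transcript sums were called higher, against 1.55% with TMM. The rod markers were higher in the same libraries, at 11866, 10057 and 8417 CPM in D3, H2 and H3 against 4062 to 4440 CPM in H1, D1 and D2, and their part in the Npas4 difference was not tested. In W1 to W3, with rod markers at 80297 to 84411 CPM, Npas4 measured 7.36 to 9.06 CPM, inside the range of rd10, and the library labelled WT W4 had both the lowest rod marker sum (3198 CPM) and the lowest Npas4 (3.52 CPM) of the 10. Nr4a1 did not overlap between the batches either, at 39.8 to 40.4 CPM in batch 2 and 41.8 to 46.0 CPM in batch 1, a difference of -0.10 (SE 0.067, adjusted p = 0.353). Groups did not overlap in 27.9% of genes and 23.1% of transcript sums. Jun differed by -0.52 in batch 2 (SE 0.29, adjusted p = 0.276). Without H1 the batch term rests on D3 alone against D1 and D2, and without D3 on H1 alone against H2 and H3, so both only restate single libraries. In the first, where 22.5% of genes and 12.1% of transcript sums passed the threshold, Jun stood at -1.32, Junb at -1.26 and Npas4 at 0.86, all 3 past it, and in the second they stood at 0.15, 0.61 and 0.42, none past it.

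**Figure D4:**
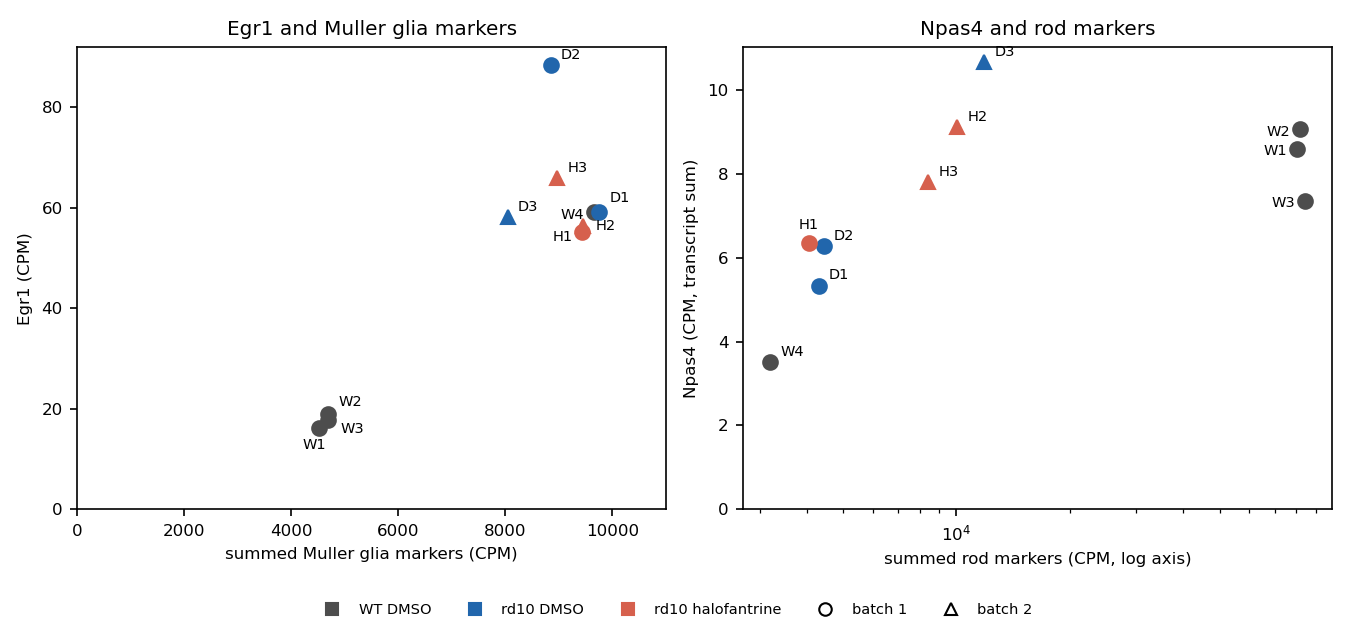
Left, Egr1 (y axis, CPM) against the summed CPM of 10 Müller glia markers (x axis) in each library; right, Npas4 (y axis, CPM from transcript sums) against the summed CPM of 13 rod markers (x axis, log scale), coloured by group with circles for batch 1 and triangles for batch 2. W1 to W3 stand apart from the other 7 libraries on both marker axes, and Npas4 is higher in the 3 rd10 libraries of batch 2 than in the 3 of batch 1.

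Markers of several other cell types were higher in the libraries with high Egr1. Müller glia markers, all 10 of which were in the gene table, were 1.74 to 2.11 times their W1 to W3 mean in W4 and the 6 rd10 libraries, gliosis markers 5.07 to 6.15 times and microglia markers 3.53 to 4.24 times theirs, and Egr1 was 3.12 to 5.01 times its own in those 7 libraries. Microglia markers (7 of 11 in the table) were at 53.6 to 59.3 CPM in W1 to W3, 215 in W4 and 202 to 243 CPM in rd10. Endothelial markers (6 of 10) were at 341 to 378, 774 and 599 to 783 CPM in the same order. Pigment epithelium markers (5 of 8), at 38.1 to 199, 304 and 132 to 545 CPM, and cone markers, at 1706 to 1875, 1467 and 1462 to 2089 CPM, overlapped between W1 to W3 and rd10. Lens markers (3 of 7 in the table) were at 0.21 to 5.54 CPM except for H2 at 22.5 CPM, and blood markers (3 of 5) were at 96.5 and 79.6 CPM in H2 and H3 against 11.8 to 60.3 CPM elsewhere. H2 and H3 were also the libraries with the highest Junb. The part of these cells in the member levels was not tested.

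Among the genes around the family, 105 of the 130 listed were tested. Without W4, 54 were higher (51.4%, against 32.3% of all genes) and 22 lower (21.0%, against 29.9%) in DMSO-treated rd10 retina, with a median of 0.28 against -0.01 for all genes. With halofantrine 57 were higher (54.3%, against 35.7%) and 27 lower (25.7%, against 36.2%). These directions hold relative to all RNA. Scaled to inner retinal neuron markers, 11 of the 105 were higher (10.5%, against 5.8% of all genes) and 59 lower (56.2%, against 72.4%) with DMSO, and 10 (9.52%, against 6.56%) and 71 (67.6%, against 76.8%) with halofantrine, with a list median of -0.39 against -0.68 for all genes with DMSO. On the TMM scale, the 3 tested partners of the EGR and NR4A factors rose in both. Nab2, a corepressor that EGR proteins induce, rose by 1.01, Nr4a2, a sister of Nr4a1, rose by 0.69 and Nab1, a second corepressor, rose by 0.41 with DMSO. Scaled to inner retinal neuron markers, Nab2 was still 0.34 higher (adjusted p = 0.0439), Nr4a2 was at 0.0048 (adjusted p = 0.98) and Nab1 turned to -0.25 (adjusted p = 0.04997). Of the AP-1 relatives 2 of 4 rose with DMSO and 3 of 4 with halofantrine, and with the inner neuron scaling none of the 4 rose and 1, Mafg, fell in both (by 0.76 and by 0.77). Genes of late activity programmes, which follow the immediate early genes in neurons, rose in 10 of 13 (76.9%, against 32.3% of all genes) and fell in none, and with the inner neuron scaling 2 rose and 3 fell (15.4% and 23.1%, against 5.8% and 72.4% of all genes). Of these, Nptxr, a neuronal pentraxin receptor, was at 60.8 ± 3.09 CPM in W1 to W3 and 117 ± 0.995 CPM in D1 to D3 (SD, n = 3 each). Of the other rapid response genes 18 rose and 9 fell of 34 (52.9% and 26.5%), and 5 and 15 with the inner neuron scaling. Ccn2, a matrix protein gene known from stretched and reactive cells, rose from 16.2 ± 2.71 to 50.4 ± 2.31 CPM, while Arl4d, a small GTPase gene, went from 124 ± 13.4 to 19.1 ± 5.31 CPM and Ier3, a stress response gene, from 38.6 ± 1.52 to 12.2 ± 0.523 CPM.

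Upstream of the family, 13 of 26 kinases rose (50.0%) and 4 fell (15.4%), where 32.3% and 29.9% of all genes did. With the inner neuron scaling 2 rose (7.69%) and 19 fell (73.1%), close to the 5.8% and 72.4% of all genes. Among the kinases that rose was Camk2a, a calcium-dependent kinase of neurons, at 45.6 ± 0.562 CPM in W1 to W3 and 84.5 ± 1.59 CPM in D1 to D3. Of 17 upstream factors 4 rose (23.5%) and 7 fell (41.2%), and with the inner neuron scaling 1 rose and 15 fell (88.2%). Mef2c, a factor that also acts in rods, went from 141 ± 2.37 to 15.9 ± 3.46 CPM. The dual specificity phosphatases, which switch MAPK signals off, rose in 4 and fell in 2 of 8, and with the inner neuron scaling 0 rose and 5 fell (62.5%), too few to read against all genes. Camk2a, Nptxr and Ccn2 stayed higher and Mef2c, Arl4d and Ier3 lower with DMSO under that scaling. W4 was at 84.6 CPM for Camk2a, 112 for Nptxr, 44.6 for Ccn2, 12.1 for Mef2c, 15.1 for Arl4d and 11.6 for Ier3, near the rd10 values for each. Halofantrine against DMSO called none of the 105 genes, with 3 at an unadjusted p under 0.05. Between batches, 3 of the 105 were higher in batch 2 (3.16% of all genes were), Arl4d (0.61, SE 0.090, adjusted p = 0.0154), Klf9 and Ifrd1, and 2 were lower (1.63% of all genes were), Dusp16 and Mafg.

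Transcripts of the members were dominated by 1 or 2 forms. Fos-201 took 93.8% of Fos counts, Junb-201 nearly all of Junb and Egr1-201 all of Egr1. Nr4a1-202 held 71.3% and Nr4a1-201 21.8% of Nr4a1 counts. Of the low members, Egr3-204 held 58.9% and the retained intron form Egr3-202 31.5%, and Npas4-201 held 61.0% with 37.4% in Npas4-203, annotated for nonsense-mediated decay. Arc-201 and Arc-202, which differ in length by 1 base, split the Arc counts 58.7% to 41.3%, and their shares in single libraries ranged widely. Counts of nearly identical transcripts are divided by estimation, and only the sums were compared.

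Within the rd10 libraries the 5 members of the gene table were summarised by their mean z-score, which was highest in D2 (1.20) and lowest in D3 (-1.06), with the other 4 libraries between -0.17 and 0.14. The genes whose log2 CPM followed this score most closely over the 6 rd10 libraries were Gm12940 (r = 0.995), Camkmt (r = 0.986), Nrg1 (r = 0.985), Fam126a (r = 0.980) and Greb1 (r = 0.978). The members themselves followed the score less closely: Fos (r = 0.794), Egr1 (r = 0.778), Nr4a1 (r = 0.741), Jun (r = 0.697) and Junb (r = 0.604). The score is thus no pattern that the members closely share. The 5 top genes are the extremes of 11692 filtered genes over 6 libraries of 2 batches and unequal depth. D2 and D3, the deepest and the shallowest library, set both ends of the score. Nrg1, a growth factor of the EGF family, measured 22.2, 26.7 and 19.1 CPM in D1 to D3 and 21.9, 22.5 and 23.1 CPM in H1 to H3.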

How the data were processed

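Libraries were made from polyA RNA of whole retina with a stranded kit. The submitters' processing notes name kallisto, edgeR, limma and GRCm39. The authors deposited estimated counts per gene (11702 genes) and per transcript (275112), and a CPM table that was used as a signal on a linear scale. The deposited log2 fold changes and p-values of the halofantrine comparison were not used. Of the estimated gene counts 51.4% were whole, and they were rounded. For members outside the gene table, transcript counts were summed per gene through GENCODE M21. Genes were filtered with filterByExpr, scaled by TMM and fitted in edgeR 4.0.16 (R 4.3.3), whose quasi-likelihood p-values were adjusted by Benjamini-Hochberg with a threshold of 0.05, fitting the groups compared only, with treatment as a term for the batch comparison. Log2 CPM used a prior count of 2. Intervals are 2 SE to each side. Each library was treated as 1 mouse. The p-values measure the spread between libraries, which can hold differences of batch and set within a group as well as differences between mice. The members were described whatever their values, and the genes named from the pathway lists were the 3 with the smallest p in each direction past the threshold. Jund, Nab1, Nab2 and Nr4a2 were named after their values were seen. The members and lists were chosen with earlier results of these data known. Alternatives were DESeq2 1.42.0, limma-voom (limma 3.58.1), other filters and scalings, limma on the deposited CPM with a pseudocount of 0.5, and leaving out each library. The GC offset, the Müller glia scaling, the settings that join another choice to leaving out W4, the transcript sums scaled to inner neurons or with batch as a term and the treatment by batch test were chosen after seeing the data. The plan held the transcript sums as description only, so none of the tests on them was planned, the main fits included. The fit was tested on simulated counts.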

Additional observations from a re-analysis of the deposited data

Results flagged for a closer look

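In the WT group of 4 libraries, the library labelled WT W4 stood apart from the other 3. The measure was the gap between W4 and its nearest neighbour as a share of the range of the group. It was 0.936 for Egr1, 0.943 for Pde6b, 0.949 for the rod marker sum, 0.937 for the bipolar cell marker sum, 0.954 for the amacrine cell marker sum, 0.968 for the Müller glia marker sum, 0.964 for the gliosis marker sum and 0.965 for the microglia marker sum. Of 17 quantities tested in this group 8 stood out, where chance gives 0.85, and all 8 concern the same library and are not independent. Egr1 was the only one of the 10 immediate early genes among them.

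The halofantrine difference of Jun was 1.46 higher on the log2 scale in batch 2 than in batch 1 by the treatment by batch test of edgeR (adjusted p = 0.0286). This term was added after the low value of D3 was seen and restates it, since D3 is the only DMSO-treated library of batch 2 and H1 the only halofantrine-treated one of batch 1, so that library and batch cannot be told apart. In the transcript sums Jun was not called (adjusted p = 0.0571 by edgeR, and 0.103 with the GC trend removed).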

How the results depend on the processing

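Without W4, the rd10 against WT calls for Egr1, Egr2 and Egr3 held with the inner neuron scaling, and Fos, Fosb, Junb and Nr4a1 with DMSO, and Fos, Jun and Nr4a1 with halofantrine, changed direction with it. The cause of each change below was not tested. No paired analysis was possible because no label ties a mouse of one group to a mouse of another. The labelled batch as a term called 0 genes and 0 transcript sums for halofantrine against DMSO. Junb was not in the strict filter. Of the member values, 222 kept direction and call when a library was left out, 16 passed the threshold and 22 changed sign; under the other settings these were 260, 27 and 49. Depth limits Egr2 most.

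Genes called, DMSO against WT: DESeq2 589. Without W4 they were 7336 with DESeq2, 7388 with limma-voom, 9146 with inner neuron scaling (11219 transcript sums), 9892 with Müller glia scaling and 7888 with the GC offset. Halofantrine against DMSO gave 3 with DESeq2. Halofantrine against WT gave 2221 with DESeq2, 0 with limma-voom, the strict filter and all 10 libraries, and 6025 with Müller glia scaling. Without W4 it gave 8171 with DESeq2, 8421 with limma-voom, 9746 with inner neuron scaling (12429 transcript sums), 10477 with Müller glia scaling and 8694 with the GC offset. Batch gave 1429 with DESeq2, 2458 with inner neuron scaling (1661 transcript sums), 0 with all 10 libraries, 355 with limma on deposited CPM and 218 with no treatment term.

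Log2 differences of opposite sign to the TMM fit with all libraries (without W4, Npas4 was already -0.18 with DMSO and -0.11 with halofantrine under TMM), DMSO against WT: with inner neuron scaling Fos -0.013, Junb -0.28, Nr4a1 -0.32 and Npas4 -0.46; with Müller glia scaling Fos -0.23, Junb -0.51 and Nr4a1 -0.56; with inner neuron scaling and without W4 Fos -0.15, Junb -0.41, Nr4a1 -0.52, Fosb -0.035 and Npas4 -0.78; with Müller glia scaling and without W4 Fos -0.42, Junb -0.69 and Nr4a1 -0.80; with the GC offset Npas4 -0.0099. Halofantrine against DMSO: Npas4 -0.027 with the GC offset, -0.12 with batch as a term and -0.0068 with inner neuron scaling. Halofantrine against WT: with inner neuron scaling Fos -0.24, Jun -0.37, Nr4a1 -0.46 and Npas4 -0.49; with Müller glia scaling Fos -0.48, Jun -0.60 and Nr4a1 -0.70; with inner neuron scaling and without W4 Fos -0.38, Jun -0.49, Nr4a1 -0.65 and Npas4 -0.79; with Müller glia scaling and without W4 Fos -0.67, Jun -0.78, Junb -0.018 and Nr4a1 -0.94; with the GC offset Nr4a1 -0.016 (-0.11 without W4) and Npas4 -0.064. Batch: Junb 0.052 with limma-voom, 0.24 with no treatment term and 0.085 with the GC offset; with inner neuron scaling Fos 0.037, Egr1 0.049, Nr4a1 0.046 and Fosb 0.012; with the GC offset Egr1 0.046 and Nr4a1 0.024; with Müller glia scaling Fos 0.0040, Egr1 0.019 and Nr4a1 0.020.

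Leaving out 1 library at a time, genes called ranged from 0 to 7280 (transcript sums 0 to 9078) for DMSO against WT, 0 to 7 (0 to 14) for halofantrine against DMSO, 0 to 8408 (1 to 10679) for halofantrine against WT and 88 to 2635 (61 to 2262) for batch. Members that changed sign ranged, for DMSO against WT, from -0.39 to 0.12 for Jun and -0.29 to 0.25 for Npas4; for halofantrine against DMSO, from -0.28 to 0.0098 for Fos, -0.32 to 0.014 for Egr1, -0.050 to 0.63 for Fosb and -0.11 to 0.40 for Npas4; for halofantrine against WT, from -0.11 to 0.25 for Npas4; and for batch, from -0.31 to 0.082 for Fos, -1.32 to 0.15 for Jun, -1.26 to 0.61 for Junb, -0.35 to 0.15 for Egr1, -0.97 to 0.58 for Fosb, -0.073 to 0.17 for Egr3 and -1.22 to 0.30 for Arc.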
